A study of Mus musculus with 8 samples.

Results

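Interleukin 1 (IL-1) is an inflammatory signal that is controlled at several levels, and 10 genes of that system were followed here. Il1a, Il1b and Il18 encode the cytokines, Il1rn an antagonist, Il1r1, Il1r2 and Il1rap the receptor chains, and Nlrp3, Pycard and Casp1 the parts of an inflammasome. The members were the array probes whose gene name equals one of these 10 symbols, which gave 12 probes of the 39429 on the array, and 10 of its 31751 gene names. The rule uses names and no measured value, but the 10 genes were picked with earlier results of these data known.

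The cells were C10, a derivative of the mouse pre-B line HAFTL in which C/EBPα can be switched on. This transcription factor turns B lineage cells towards a macrophage-like state. One C10 line carried a control short hairpin RNA and the other was labelled Tet2 knockdown, so all 4 groups shared the same parental line and the same inducible factor. Each line was sampled uninduced (0 h) and after 24 h in medium with estradiol (100 nM) and the cytokines M-CSF and IL-3 (10 ng/ml for each), and each of the 4 groups had 2 arrays. The series text calls these technical duplicates, so each p-value rests on how far duplicate arrays lie apart, and the variation between cultures is unknown. The 24 h groups differ from the 0 h groups in the cytokines as well as in estradiol, and the effects of the factor and of the cytokines cannot be told apart.

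As background, IL-1α and IL-1β bind the type I receptor, which recruits the accessory protein and signals through MyD88 and IRAK kinases to NF-kappaB. The antagonist occupies the type I receptor without signalling, and the type II receptor binds the cytokine as a decoy because it lacks a signalling domain. Pro-IL-1β and pro-IL-18 are cut by caspase-1, which an inflammasome activates: NLRP3 is a sensor and the product of Pycard (ASC) is the adaptor between sensor and caspase. Macrophages and neutrophils are major sources of IL-1β, and C/EBPβ, a relative of C/EBPα, is a known regulator of the Il1b promoter. Only RNA was measured here, so cleavage and secretion of the proteins were outside the assay.

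Il1a and Il1b are neighbouring genes on chromosome 2. Il1b was measured at 24 h and Il1a was not well above background on any array, and the sequences just before their starts are shown for that reason. The antagonist's start with a C/EBP-like match and the Casp1 start with no match stand beside them. The 120 bases before each RefSeq start were taken from mouse assembly GRCm38.p6 and run 5′ to 3′ along the gene, with matches to the searched motifs in capitals.
Il1b (chr2:129371140-129371259, minus strand): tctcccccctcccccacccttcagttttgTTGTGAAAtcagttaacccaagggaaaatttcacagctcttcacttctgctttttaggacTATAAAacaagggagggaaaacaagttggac
Il1a (chr2:129309973-129310092, minus strand): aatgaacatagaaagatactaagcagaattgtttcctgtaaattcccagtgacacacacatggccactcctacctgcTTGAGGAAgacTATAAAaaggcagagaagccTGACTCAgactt
Il1rn, second start (chr2:24345171-24345290, plus strand): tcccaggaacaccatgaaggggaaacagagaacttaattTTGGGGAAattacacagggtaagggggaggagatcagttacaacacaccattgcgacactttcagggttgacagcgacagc
Casp1 (chr9:5298397-5298516, plus strand): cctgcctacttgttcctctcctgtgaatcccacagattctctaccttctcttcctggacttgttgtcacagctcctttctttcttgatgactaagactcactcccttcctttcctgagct

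The motifs were searched on both strands in the full RefSeq windows, which run from 250 bases before to 50 bases after each start. The 10 genes had 14 such windows, in which a position is counted from the start and names the leftmost base of a match. A C/EBP-like match (TTGNGNAA) lay in 5 windows of 4 genes, namely at position -91 of Il1b, -43 of Il1a, -81 and -161 of the 2 downstream Il1rn starts and -23 of the second Nlrp3 start. Those Il1rn windows overlap and share that match. Of all 32851 windows in the table, 13.3% held a C/EBP-like match.

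A TATA box (TATAAA) preceded Il1b at position -31 and Il1a at -32. Matches on the opposite strand lay at -175 of Il18 and at 15 of an Il1rn start, and 13.6% of all windows held a match. AP-1 matches (TGANTCA, 7.81% of windows) lay at -12 of Il1a and at -141 of the first Il1rn start. NF-kappaB matches (GGG, any 3 bases, then TTCC, in 5.56% of windows) lay in all 3 Il1rn windows and in the second Il1r1 window. The overlapping Il1rn windows share the same match here too. The Pycard window held a PU.1 match on the opposite strand (GAGGAAGT, 3.20% of windows) at -44. The windows of Casp1, Il1r2 and Il1rap held no match to any of the 5 motifs. These matches describe letters and say nothing of binding.

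Array values below are on the log2 scale relative to each array's 75th percentile of signal, so 0 is the level of a probe at that percentile. A probe's level cannot be set against that of another probe. A probe was tested if some group had both of its arrays marked as well above background by the scanner software. A gene was called where its adjusted p (limma, Benjamini-Hochberg over all 16153 genes tested) was under 0.05 and its change at least 2-fold. Where a group had no array well above background, its comparison is also given as "at least N-fold". The level set against it is the dimmest probe still marked as well above background on each array, or the probe's own value where higher. That mark differs between probes, and some values above this level were unmarked. A probe of Il1rap read -5.47 without the mark on an array where the level was -5.62. An "at least" value is thus relative to this level and not a strict bound.

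Across the arrays, 47.4% to 55.6% of the probe spots were well above background and none was saturated. The correlation between duplicates, across genes, was 0.9923 to 0.9939. Tet2, which encodes a DNA demethylating enzyme and is the gene named in the label, read -1.24 and -1.38 in control cells at 0 h, -1.53 and -1.31 in the line labelled knockdown at 0 h, -0.04 and 0.00 in control cells at 24 h, and -0.07 and 0.05 in the other line at 24 h. Its difference between the lines was -0.11 ± 0.10 (SE, adjusted p = 0.54, limma) at 0 h and 0.01 ± 0.10 (adjusted p = 0.97) at 24 h, so the label was not borne out by the transcript, and whether the hairpin's target lies in the region the probe reads was not tested. The library names are therefore kept as labels throughout.

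Marker lists gave the cell state. All 8 B lineage markers were well above background in every group, and their summed level, as a percent of the 75th percentile, went from 45500-49300 to 25700-28300 in control cells and from 43100-49800 to 35300-37500 in the other line. Macrophage markers went from 567-614 to 82600-87100 and from 543-580 to 79200-87800, with 6 of 8 measured at 0 h and 7 of 8 at 24 h. The neutrophil list went from 38.9-48.8 to 3480-3870 and from 36.5-38.5 to 4750-4830, with 3 of 7 measured at 24 h, namely Camp, S100a8 and Elane. Camp was at least 1250-fold higher at 24 h in control cells and S100a8 at least 195-fold, while in the other line S100a8 was at least 11.4-fold higher. The remaining neutrophil genes on the array (Ltf, Ngp, S100a9 and Mpo) were not well above background in any group. None of the 6 mast cell and basophil markers was well above background in any group. Of 5 T cell markers, 3 were measured in every group. Their sum went from 277-293 to 385-536 in control cells and from 233-310 to 491-620 in the other line. Of 5 dendritic markers, 3 were measured at both times in control cells, and 2 at 0 h and 4 at 24 h in the other line. Of 5 stromal markers, 0 were measured at 0 h in either line, and 1 and 2 at 24 h. In such bulk RNA, more cells of a type and more RNA per cell cannot be told apart, and the part of these shifts in the results below was not tested.

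**Figure D1:**
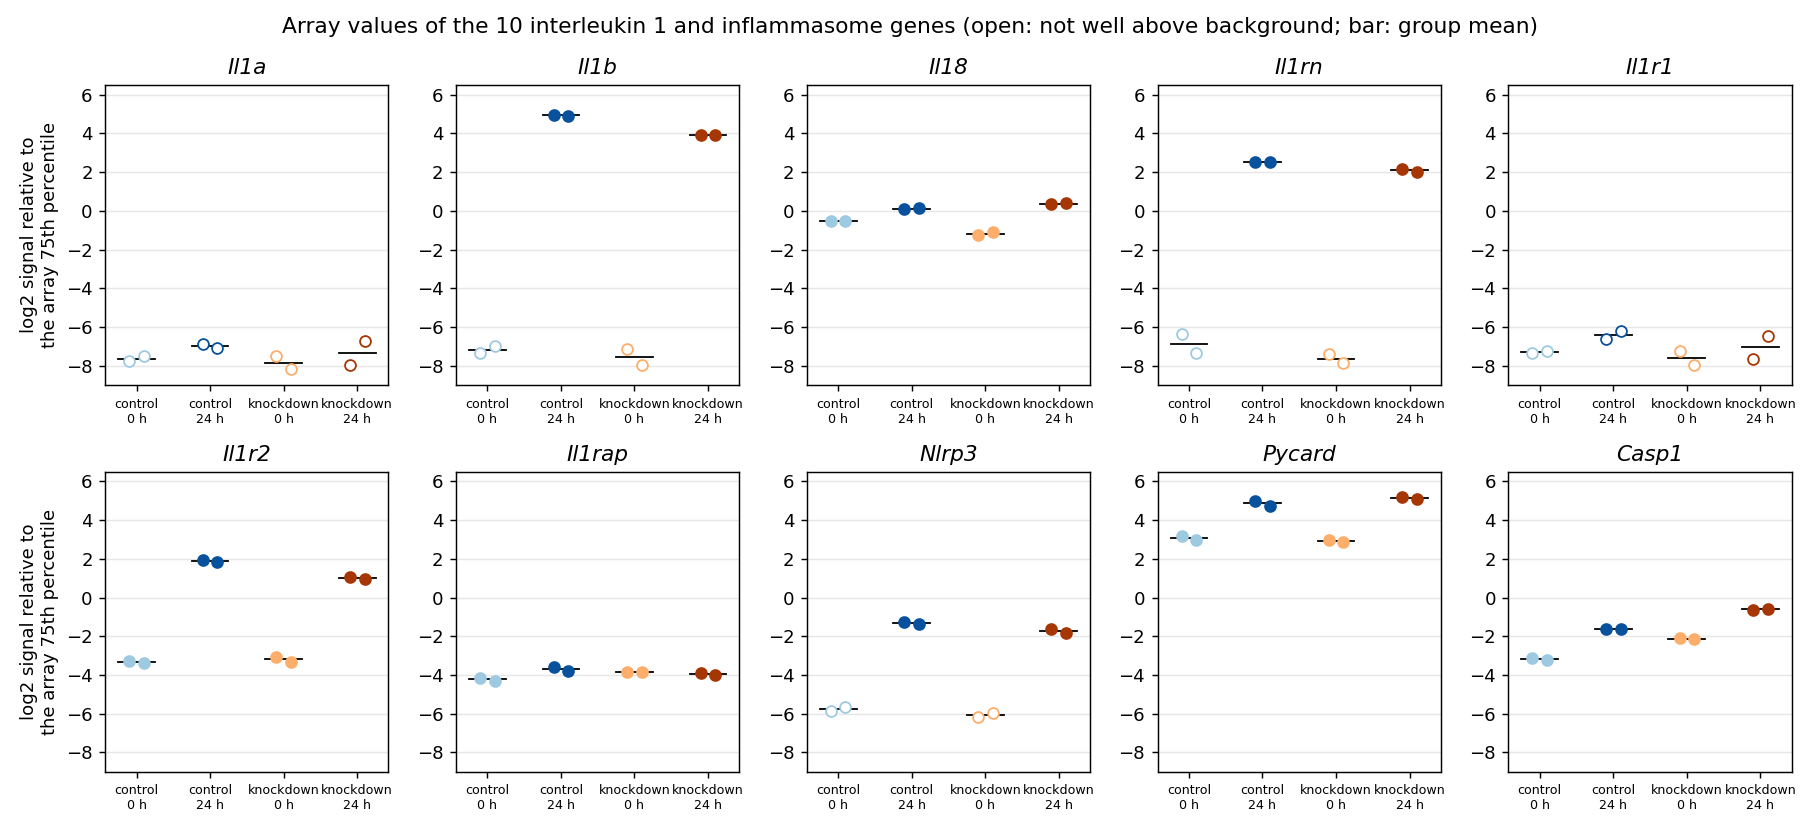
Array values of the 10 genes in the 4 groups, as log2 signal relative to the array's 75th percentile (y axis). Points are arrays (2 per group), bars are group means and open points were not well above background; Il1b, Il1rn and Nlrp3 are open at 0 h and filled at 24 h in both lines, and Il1a and Il1r1 are open throughout.

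Induction raised most of the tested transcripts of the system in both lines. Il1b and the antagonist, both below background at 0 h, rose at least 196-fold in the main fit. Of the 8 members tested, 6 were called higher and 0 lower in control cells, where 27.3% of all genes tested were called (14.2% higher, 13.1% lower). In the line labelled Tet2 knockdown, 7 were called higher and 0 lower, against 32.1% of all genes (16.7% higher, 15.4% lower). The median change of the 8 was 3.11 in control cells and 3.22 in the other line, beside 0.00 and 0.14 for all genes. Il1b, Il1rn and Nlrp3 passed the filter only through their 24 h arrays, so a higher value at 24 h was built into their selection, and Il1a and Il1r1 did not pass at all.

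Among the cytokines, Il1b (probe at chr2:129190347-129190406, minus strand, mm9) changed most. Its values were -7.36 and -6.99 in control cells at 0 h and 4.93 and 4.91 at 24 h. In the line labelled knockdown they were -7.12 and -7.98 at 0 h and 3.93 and 3.92 at 24 h. All 4 arrays at 24 h lay far above all 4 at 0 h, none of which was well above background. Il1b rose by 12.10 ± 0.285 (SE) in control cells, at least 1220-fold, and by 11.48 ± 0.285 in the other line, at least 700-fold (adjusted p = 2.2e-06 and 2e-06, limma).

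Il1a (chr2:129125994-129126053, minus strand, mm9), the other IL-1 cytokine, was not well above background on any of the 8 arrays. Its values lay between -8.17 and -6.75, and its processed intensity between 2.93 and 9.21 units. The dimmest probe still well above background had a value from -5.85 to -4.44, depending on the array, so a low level of Il1a was not detectable here. Its promoter window shares a TATA box and a C/EBP-like match with that of Il1b, as printed above.

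Il18 (chr9:50389761-50389820, plus strand, mm9) encodes the other substrate of caspase-1 among the members and was measured on all 8 arrays. Control cells gave -0.53 and -0.54 at 0 h and 0.09 and 0.14 at 24 h, and the line labelled knockdown gave -1.26 and -1.09, then 0.34 and 0.40. The 0 h and 24 h arrays did not overlap in either line. The change was 0.65 ± 0.07 in control cells (1.57-fold, adjusted p = 6e-04), short of 2-fold, and 1.55 ± 0.07 in the other line (2.92-fold, adjusted p = 1.7e-05), where Il18 was called.

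Il1rn (chr2:24205094-24205153, plus strand, mm9), the receptor antagonist, followed Il1b. It read -6.37 and -7.37 in control cells at 0 h and 2.53 and 2.52 at 24 h. In the other line it read -7.42 and -7.87 at 0 h and 2.18 and 2.01 at 24 h. No 0 h array was well above background, and their spread was the widest among the 8 tested members, at 1.00 between the control duplicates. Il1rn rose by 9.39 ± 0.34 in control cells, at least 232-fold, and by 9.74 ± 0.34 in the other line, at least 196-fold (adjusted p = 7.5e-06 and 5.6e-06, limma).

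The receptor genes moved unequally. Il1r2 (chr1:40180014-40180073, plus strand, mm9), the decoy, was measured on all 8 arrays. It read -3.27 and -3.38 in control cells at 0 h and 1.92 and 1.83 at 24 h, and in the other line -3.05 and -3.35, then 1.05 and 0.94. Each 24 h array lay far above every 0 h array. Il1r2 rose by 5.197 ± 0.116 in control cells (36.7-fold) and by 4.196 ± 0.116 in the other line (18.3-fold), with adjusted p = 1.9e-06 and 2.8e-06 (limma).

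Il1r1 (chr1:40372667-40372726, plus strand, mm9), the receptor that signals, was not well above background on any array, with values from -7.96 to -6.22. Il1rap, the accessory chain that the type I receptor needs, was read by a pair of probes that the array annotation assigns to different transcript variants. The probe of variant 2 (chr16:26701498-26701557, plus strand, mm9) was measured on all 8 arrays, while that of variant 1 (chr16:26716515-26716574) was measured on none, with values from -7.20 to -5.47. All Il1rap changes given here come from the variant 2 probe. Which form of the protein each variant encodes was not examined.

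The variant 2 probe of Il1rap read -4.15 and -4.29 in control cells at 0 h and -3.59 and -3.81 at 24 h. In the other line it read -3.86 and -3.87 at 0 h and -3.92 and -4.01 at 24 h. Its change was 0.52 ± 0.10 in control cells (1.43-fold, adjusted p = 0.0051), short of 2-fold, and -0.10 ± 0.10 in the other line (95% interval -0.34 to 0.15, adjusted p = 0.42). It was the only tested member called in neither induction.

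Of the inflammasome genes, Nlrp3, the sensor, rose most. Its representative probe (chr11:59379981-59380040, plus strand, mm9) read -5.85 and -5.64 in control cells at 0 h and -1.29 and -1.36 at 24 h. In the other line it read -6.16 and -5.97, then -1.61 and -1.85, and no 0 h array was well above background. Nlrp3 rose by 4.42 ± 0.13 in control cells, at least 16.1-fold, and by 4.34 ± 0.13 in the other line, at least 13.9-fold (adjusted p = 3.5e-06 and 3.2e-06, limma). The other Nlrp3 probe (chr11:59378554-59378613) was called in both lines too, with 3.92 ± 0.70 in control cells, at least 5.09-fold, and 3.23 ± 0.70 in the other line, where 1 of the 2 arrays at 0 h was measured.

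Pycard (chr7:135136241-135136300, minus strand, mm9), the adaptor, was measured on all arrays already at 0 h. It read 3.16 and 2.97 in control cells at 0 h and 4.99 and 4.75 at 24 h, and 2.96 and 2.85, then 5.21 and 5.08, in the other line. The 24 h arrays were all above the 0 h arrays. Pycard rose by 1.80 ± 0.12 in control cells (3.49-fold, adjusted p = 6.2e-05) and by 2.24 ± 0.12 in the other line (4.72-fold, adjusted p = 2.4e-05).

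Casp1 (chr9:5307206-5307265, plus strand, mm9) encodes the protease that cuts both cytokine precursors. It read -3.11 and -3.23 in control cells at 0 h and -1.64 on both arrays at 24 h. In the other line it read -2.10 and -2.14, then -0.62 and -0.59. The levels thus formed 4 separate steps, with control cells at 0 h lowest, the other line at 0 h next, control cells at 24 h above it and the other line at 24 h highest. Casp1 rose by 1.53 ± 0.06 in control cells (2.88-fold) and by 1.51 ± 0.06 in the other line (2.85-fold), with adjusted p = 1.3e-05 and 1.1e-05 (limma).

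**Figure D2:**
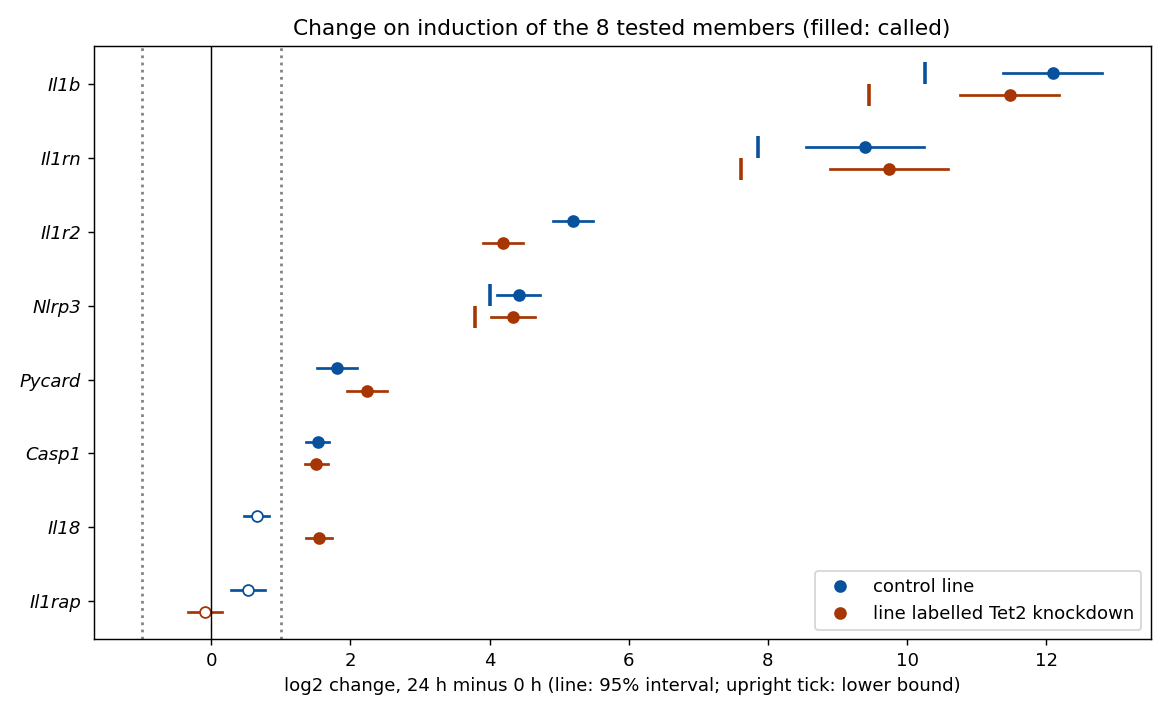
Change on induction of the 8 tested members, as log2 24 h minus 0 h (x axis), in the control line (blue) and the line labelled Tet2 knockdown (brown). Points are fitted changes with 95% intervals, filled where called. Upright ticks are the "at least" values of genes not well above background at 0 h, and dotted lines mark 2-fold. Il1b lies at 12.10 and 11.48, and Il1rap at 0.52 and -0.10.

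Leaving out any of the 8 arrays changed none of these induction calls, with 6 and 7 members called each time. Requiring a probe to be well above background on all arrays left 3 and 4, because Il1b, Il1rn and Nlrp3 were then not tested. The lowest fitted changes of Il1b over the other settings were 8.62 and 7.68, in the authors' deposited values, and both calls stayed. These are under its "at least" values, which are 10.26 and 9.45 on the log2 scale. The lowest changes of Il1rn (6.22 and 5.92) and Nlrp3 (2.35 and 2.11) were also under theirs, with the calls kept. The "at least" values thus hold for the main fit and not for every processing.

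The comparison of the lines asks whether the line labelled Tet2 knockdown differs from control in these genes before and after induction. Before induction, Casp1 stood higher in the line labelled knockdown, and no other member was called. This was 1 member of 8, where 1.70% of all genes were called (0.328% higher, 1.37% lower). Of the 8, 4 had an unadjusted p under 0.05, among them Nlrp3, which was above background in neither line. The share of all genes under that p is not given here, so this count says nothing particular to the members. Casp1 was 2.07 times the control level (log2 difference 1.05 ± 0.06, adjusted p = 0.0017, limma), higher in both arrays, by 1.02 on slide 1 and 1.09 on slide 2. Its call was lost without the second control array at 0 h (0.99) and in the normexp and the authors' deposited values (0.76 in each), where it stayed past the adjusted p but under 2-fold.

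Il18 was at 64.2% of the control level at 0 h (-0.64 ± 0.07, adjusted p = 0.0074, limma), which passed the adjusted p but not the fold. Its values in the other line, -1.26 and -1.09, both lay under the control values of -0.53 and -0.54. Il1r2 differed by 0.12 ± 0.12 (95% interval -0.17 to 0.41), Pycard by -0.16 ± 0.12 (-0.46 to 0.13) and Il1rap by 0.36 ± 0.10 (0.11 to 0.60, adjusted p = 0.070). Il1b, Il1rn and the representative Nlrp3 probe were above background in neither line at 0 h, and no fold is given for them. The other Nlrp3 probe was well above background on 1 array of the line labelled knockdown. It differed by 0.57 ± 0.70 (95% interval -1.18 to 2.32), which did not pass the test.

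At 24 h, Casp1 again stood higher in the line labelled knockdown, at 2.05 times the control level (1.04 ± 0.06, adjusted p = 0.0015, limma), by 1.02 on slide 1 and 1.05 on slide 2. It was 1 of 8 members called, where 2.04% of all genes were called (1.04% higher, 0.997% lower). Of the 8, 6 had an unadjusted p under 0.05, and the share of all genes under it is again not given. Without the fold minimum, Il1r2 would join it. The Casp1 call was lost in the normexp values (0.90), the authors' deposited values (0.89) and under median scaling (0.96, adjusted p = 0.061).

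Il1b at 24 h was at 50.1% of the control level in the line labelled knockdown (-0.997 ± 0.285, adjusted p = 0.077, limma), which did not pass the test. The probe is printed 10 times on each array, and these spots show the size of the gap. On the control arrays they spanned 4.84 to 5.02 and 4.85 to 4.99, and on the other line's arrays 3.86 to 4.04 and 3.84 to 4.01, so no spot of one line reached those of the other. Spots of an array are repeat readings of one sample and not replicates.

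The standard error of Il1b in the fit over 8 arrays includes the spread of the 0 h arrays, which were below background. A fit of only the 4 arrays at 24 h, chosen after seeing the data, gave the same difference with a standard error of 0.06 and an adjusted p of 0.023, still just short of 2-fold. Over all alternatives the difference lay between -1.07 and -0.98, with adjusted p from 0.00074 to 0.28, and 6 of 17 were under 0.05.

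**Figure D3:**
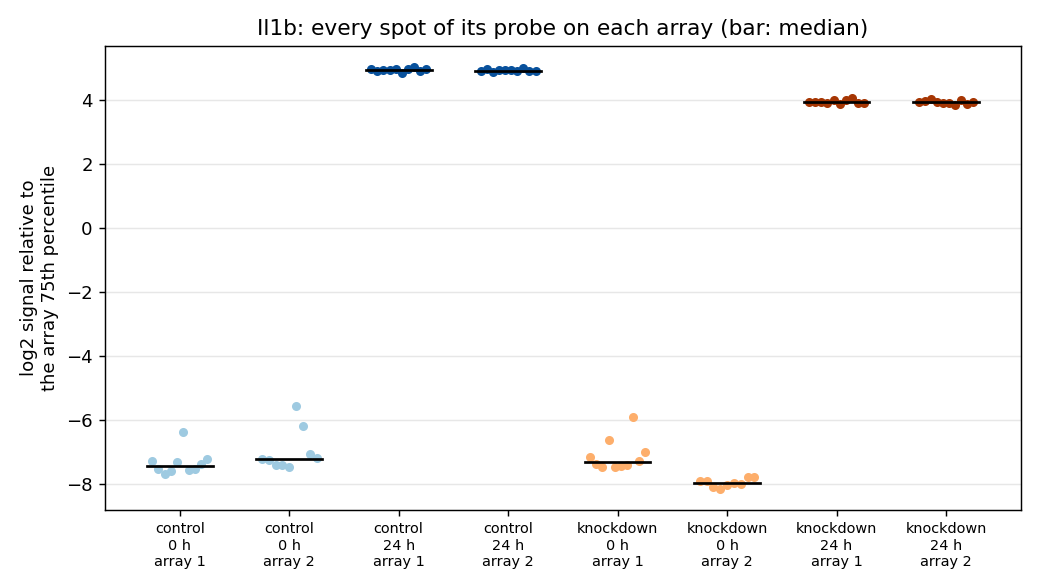
Every spot of the Il1b probe on each of the 8 arrays, as log2 signal relative to the array's 75th percentile (y axis), with the median as a bar. At 24 h the medians are 4.94 and 4.91 in control cells and 3.92 on both arrays of the line labelled knockdown; the 0 h spots are below background.

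Il1r2 at 24 h was at 54.4% of the control level (-0.88 ± 0.12, adjusted p = 0.010, limma), past the adjusted p and under 2-fold, with both arrays of the other line (1.05 and 0.94) under both control arrays (1.92 and 1.83). Il1rn was at 74.3% of control (-0.43 ± 0.34, 95% interval -1.27 to 0.42) and Nlrp3 at 75.6% by its representative probe (-0.40 ± 0.13, adjusted p = 0.091). The other Nlrp3 probe gave 92.4% (-0.115 ± 0.701, 95% interval -1.86 to 1.63). Pycard was at 121% (0.27 ± 0.12, adjusted p = 0.19), Il18 at 119% (0.26 ± 0.07, adjusted p = 0.078) and Il1rap at 83.5% (-0.26 ± 0.10, adjusted p = 0.14). None of these 5 passed the test, and the intervals do not show that the lines were alike. The summed B lineage markers were higher in the line labelled knockdown at 24 h (35300-37500 against 25700-28300). Of these 8 markers 0 were called, with a median difference of 0.11. The macrophage sums overlapped (79200-87800 against 82600-87100). Of 7 macrophage markers tested, 1 was called higher and 0 lower at 24 h (14.3%, beside 2.04% of all genes), with a median of 0.11. For the difference between the inductions, 2 of these 7 were called higher and 0 lower (28.6%, beside 3.81% of all genes). The neutrophil sum was higher (4750-4830 against 3480-3870), but a sum follows its brightest probes. Of the 3 neutrophil genes tested, 0 were called higher and 1 lower, namely S100a8 (-4.29 ± 0.39, adjusted p = 0.0039, limma), and their median difference was -0.10. The part of these levels in the differences was not tested.

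The difference between the inductions asks whether 24 h changed a gene by different amounts in the 2 lines. Il1r2 was called lower, so its induction was smaller in the line labelled knockdown, 18.3-fold against 36.7-fold (log2 difference -1.001 ± 0.164, adjusted p = 0.019, limma), by -1.085 on slide 1 and -0.92 on slide 2. It was 1 of 8 members called, where 3.81% of all genes were called (2.35% higher, 1.46% lower). The value lies at the 2-fold threshold, and the call was lost in 11 of 17 alternatives, among them 7 of the 8 that each left out 1 array (every array but the second uninduced one of the line labelled knockdown). Over all alternatives the value ranged from -1.15 to -0.85 and the adjusted p from 0.0072 to 0.21.

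Il18 was induced 1.86 times as much in the line labelled knockdown (0.90 ± 0.10, adjusted p = 0.0089, limma), from the lower level at 0 h to a level at 24 h that did not differ by the test. Il1rap differed by -0.62 ± 0.14 (adjusted p = 0.039), with -0.62 on each slide, and its adjusted p was under 0.05 in 5 of 17 alternatives. Both passed the adjusted p and stayed under 2-fold. Casp1, whose level was higher in the line labelled knockdown at both times, had a difference of -0.02 ± 0.09 (95% interval -0.24 to 0.21), or 0.845 to 1.16 as a ratio of the inductions. The values of Pycard (0.43 ± 0.17, adjusted p = 0.14), Il1b (-0.62), Il1rn (0.345) and Nlrp3 (-0.08) did not pass the test, and the last 3 rest on 0 h arrays below background. The other Nlrp3 probe gave -0.685 ± 0.992 and did not pass either.

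**Figure D4:**
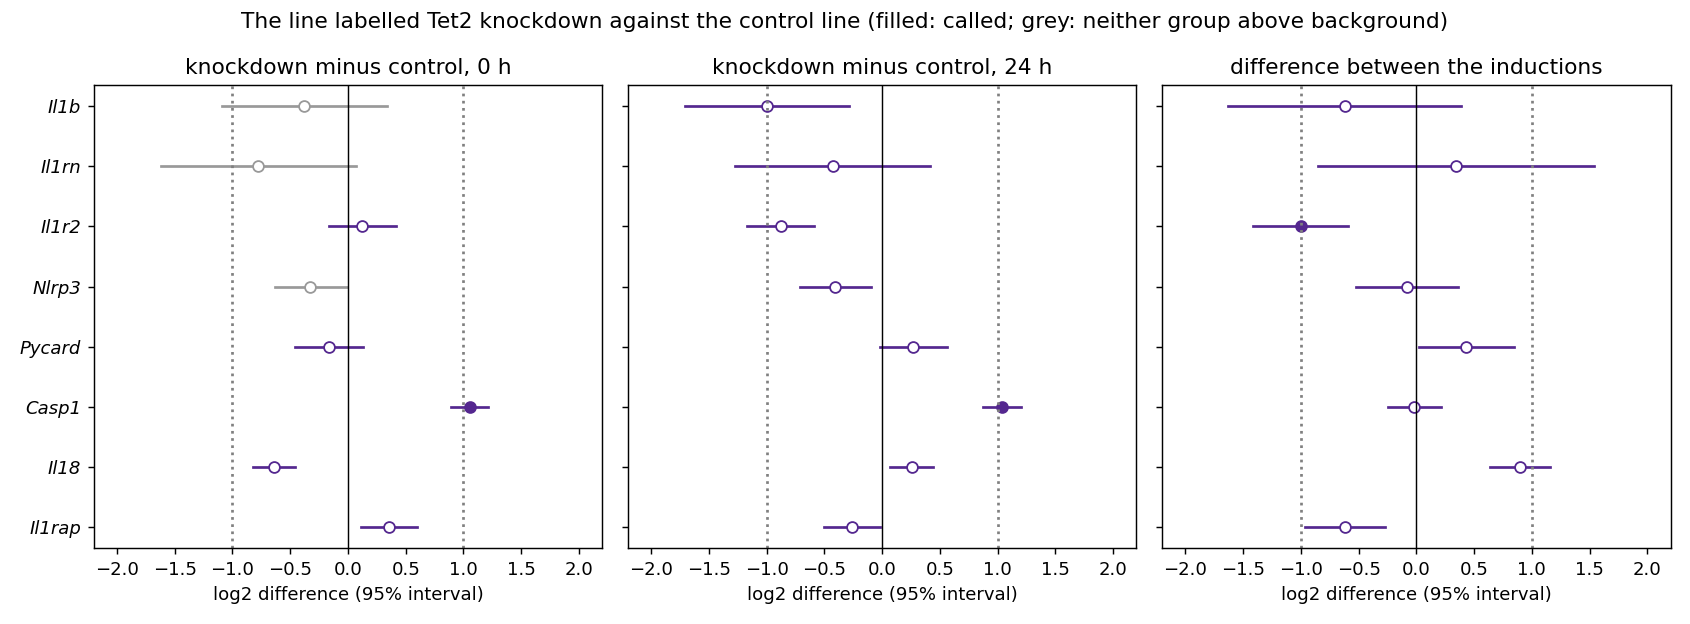
The line labelled Tet2 knockdown minus the control line at 0 h, at 24 h and for the difference between the inductions (x axes, log2 with 95% intervals) for the 8 tested members. Filled points are called, grey points were above background in neither group, and dotted lines mark 2-fold; Casp1 lies at 1.05 and 1.04 at the 2 times and at -0.02 for the difference between the inductions.

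Other genes of the pathway were described by lists. Of 22 genes of IL-1 receptor signalling, 21 were tested; 6 were called higher and 0 lower in control cells, and 7 higher and 1 lower in the other line. That is 28.6% and 38.1% of the tested genes, beside 27.3% and 32.1% of all genes. Their median changes were 0.48 and 0.40, beside 0.00 and 0.14 for all genes. In control cells the leading genes were Irak3, which encodes an inhibitory kinase-like protein (2.22 ± 0.10), the adaptor gene Myd88 (1.56 ± 0.07), Tnfaip3, which encodes an inhibitor of NF-kappaB signalling (1.48 ± 0.10), and Nfkbia, which encodes the inhibitor IκBα (1.42 ± 0.06). The same 4 gave 2.04, 1.26, 1.35 and 1.13 in the other line. Nfkb1, which encodes an NF-kappaB subunit, changed by -0.94 ± 0.11 in control cells (adjusted p = 5.8e-04, limma), short of 2-fold, and by -1.15 ± 0.11 in the other line (adjusted p = 2.2e-04), where it was called. The call was lost in 1 of 18 alternatives, and the difference between the inductions did not pass the test (-0.21, adjusted p = 0.40, limma). No gene of this list was called between the lines at 0 h or 24 h (limma), where 1.70% and 2.04% of all genes were called. At such shares, no call among 21 genes says little of the list. At these times 9 and 5 of the 21 had an unadjusted p under 0.05, and the share of all genes under it is not given here.

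Irak2, a kinase gene of the same cascade, was called on induction in the line labelled knockdown (1.33 ± 0.08) and not in control cells, and its difference between the inductions was called (1.003 ± 0.115, adjusted p = 0.0087, limma). That call was lost in 9 of 17 alternatives, with values from 0.86 to 1.76.

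Among 23 genes of inflammasome sensing and pyroptosis, 20 were tested, and 6 were called higher and 1 lower in control cells and 7 higher and 1 lower in the other line. In control cells 35% of the tested genes were thus called, beside 27.3% of all genes (14.2% higher, 13.1% lower). In the other line it was 40%, beside 32.1% of all genes (16.7% higher, 15.4% lower). Their median changes were 0.64 and 0.90, beside 0.00 and 0.14 for all genes. Naip2 and Nlrc4, which encode a receptor of bacterial ligands and its partner in the NAIP-NLRC4 inflammasome, rose by 3.06 ± 0.07 and 2.59 ± 0.15 in control cells and by 3.08 and 2.50 in the other line. Whether the Naip2 probe also reads its close paralogs was not tested. Casp4 (caspase-11, the protease of the non-canonical inflammasome) rose by 1.98 ± 0.06 in control cells and by 3.19 ± 0.06 in the other line. Nlrp1a, a sensor gene, fell by 2.82 ± 0.08 and 3.22 ± 0.08, but by 0.40 and 0.48 when its kept probes were averaged, so its probes disagreed and that call was lost.

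Between the lines, Casp4 differed by 0.56 ± 0.06 at 0 h (adjusted p = 0.0055, limma), under 2-fold, and stood at 3.40 times the control level in the line labelled knockdown at 24 h (1.76 ± 0.06, adjusted p = 4e-04, limma), with a called difference between the inductions (1.20 ± 0.08, adjusted p = 0.0029) that was lost under median scaling (1.06, adjusted p = 0.17). Aim2, a sensor of DNA, was called higher at 0 h (1.05 ± 0.22) and 24 h (1.01 ± 0.22). These Aim2 calls were lost in 12 and 11 of 18 alternatives, with adjusted p from 0.024 to 0.17 and from 0.018 to 0.17.

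Of 12 genes known to respond to IL-1, 8 were tested, and these 8 were called higher in both lines, beside 14.2% and 16.7% of all genes. Their median changes were 4.42 and 3.40 (3.20 and 2.37 with genes below background at 0 h set at their bounds), beside the same 0.00 and 0.14. Ptgs2, Lcn2 and Mmp9 were below background at 0 h in both lines and Saa3 in control cells, so for such genes a higher value at 24 h was built into passing the filter and the count carries no weight. Cxcl1, Cxcl2, Vcam1 and Csf3, also on the list, were not well above background on both arrays of any group. Ccl2, a monocyte chemokine gene, rose by 11.45 ± 0.20 in control cells and was at least 1400-fold higher in the other line, where it was below background at 0 h. Il6, a cytokine gene, rose by 6.46 ± 0.07 and 7.38 ± 0.07 in the 2 lines, and Ptgs2 (cyclooxygenase 2) was at least 44.2-fold and at least 32.9-fold higher. Mmp9, a gelatinase gene, was at least 10.9-fold and at least 5.22-fold higher. The call for Lcn2 was lost in 9 of 17 alternatives in each line.

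In the line labelled knockdown, Il6 was at 32.3% of the control level at 0 h (-1.63 ± 0.07, adjusted p = 9.8e-04, limma), a call lost in the normexp values (-0.79) and the authors' deposited values (-0.79). Ccl2 was at 29.2% at 24 h (-1.78 ± 0.20, adjusted p = 0.0068), a call lost without the first control array at 24 h (-1.74, adjusted p = 0.052). At 0 h Ccl2 was below background in the line labelled knockdown and at least 1.72-fold higher in control cells, and that call was lost in 4 of 17 alternatives. Mmp9 was at 42.1% at 24 h (-1.25 ± 0.22, adjusted p = 0.023), a call lost in 7 of 17. At each time 2 of the 8 tested genes of this list were thus called lower and 0 higher. Of all genes, 1.37% were called lower at 0 h and 0.997% at 24 h.

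The other IL-1 family genes were mostly not well above background. Of 6 cytokine genes only Il33 was tested, and of 8 receptor and binding protein genes only Il18bp and Sigirr, with none of the 3 called in any comparison (limma). Il33 had unadjusted p-values of 0.034 on induction in the line labelled knockdown (-1.56 ± 0.56) and 0.050 between the lines at 0 h (1.40 ± 0.56). For Il18bp and Sigirr, the number with an unadjusted p under 0.05 was 1, 2, 2, 1 and 1 in the inductions of control cells and of the other line, between the lines at 0 h and 24 h, and for the difference between the inductions. Il18bp, which encodes the protein that neutralises IL-18, changed by -0.01 ± 0.08 in control cells and 0.61 ± 0.08 in the other line. Sigirr, an inhibitory receptor gene, changed by 0.60 ± 0.10 and 0.77 ± 0.10.

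**Figure D5:**
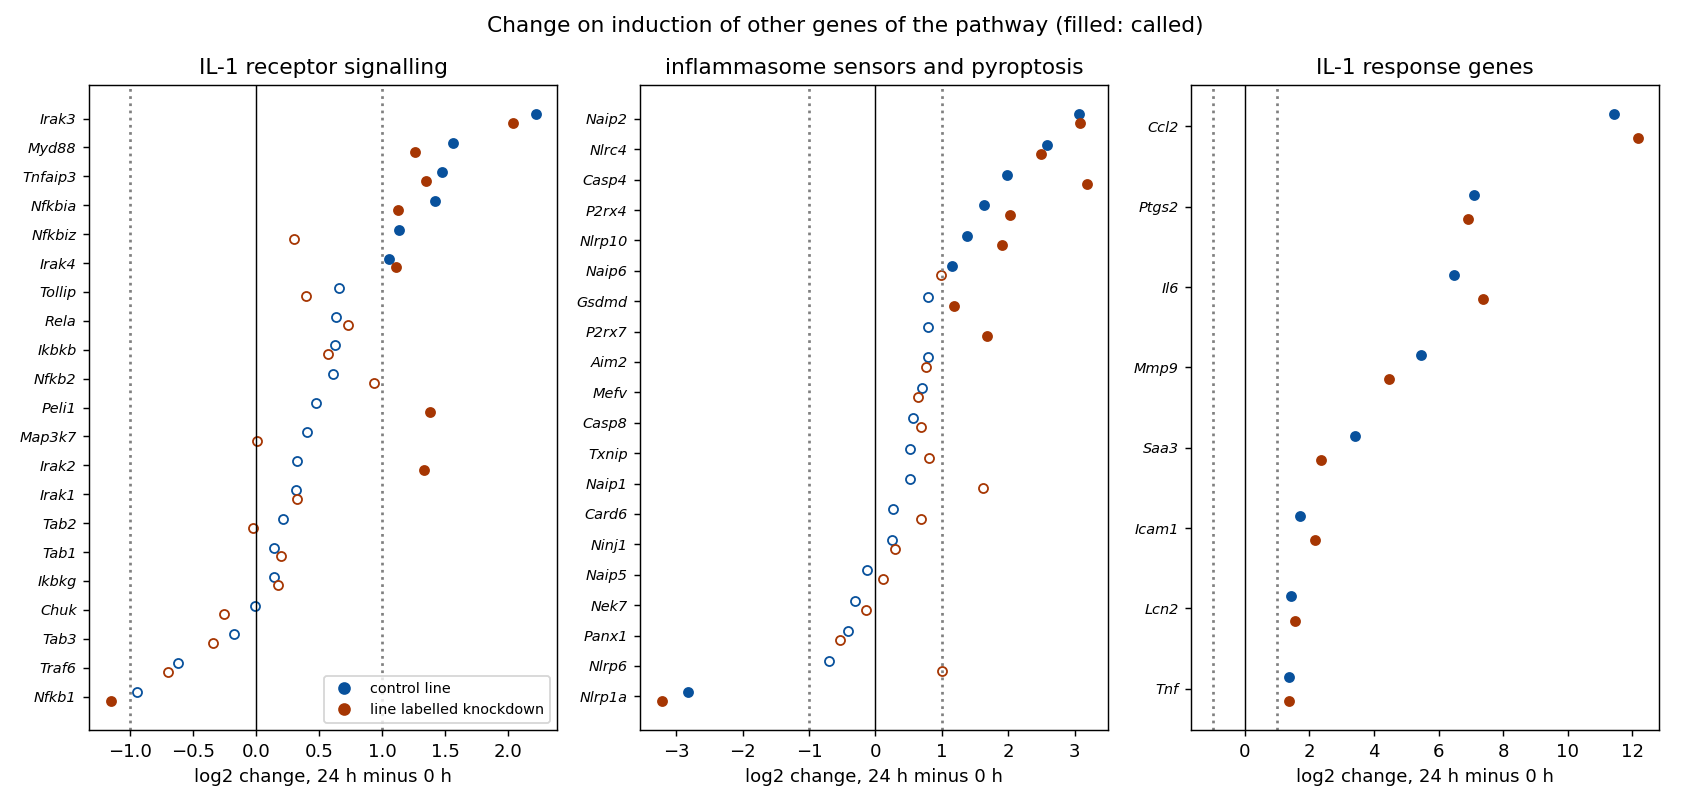
Change on induction (log2 24 h minus 0 h, x axes) of the tested genes of IL-1 receptor signalling, of inflammasome sensing and pyroptosis, and of the genes known to respond to IL-1, in the control line (blue) and the line labelled Tet2 knockdown (brown). Filled points are called and dotted lines mark 2-fold; the x axes differ in range, with Ccl2 at 11.45 and Nlrp1a at -2.82 in control cells.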

How the data were processed

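The deposited scanner files hold 1 array each, with the intensity of every spot as a processed signal; per the file headers it comes from Feature Extraction 10.7.3.1 on a 1-colour Agilent array annotated on mm9. Per the labels, 500 ng of total RNA was labelled with Cy3 for each sample. The authors' deposited value table is on the log2 scale with a median of 6.84 in every column. Its processing is named only as limma, without a version, per the submitters' processing notes, and it matched a recomputation with normexp (offset 50) and quantile normalization (lowest r across spots 0.999997); its use here is as an alternative.

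Values were log2 of the processed signal minus that of the array's own 75th percentile, taken without control spots. Outlier spots were left out and spots of a probe averaged. A gene was represented by whichever of its kept probes had the highest mean, which left 20306 probes and 16153 genes. All 8 arrays entered 1 linear model with 4 group means (limma 3.58.1, R 4.3.3, 4 residual and 1.51 prior degrees of freedom). Tests were 2-sided, and ± is the standard error unless stated, with n = 2 arrays per group. The script was tested on simulated data.

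Every member is named. From each pathway list, up to 4 called genes with the largest change in control cells are named, and any called between the lines; Nfkb1, Lcn2, the 4 untested response genes, Il33, Il18bp, Sigirr and further genes whose inductions differed past the adjusted p were named after their values were seen. The members and lists were chosen with earlier results of these data known. Replicate number equals slide, and the deviations of same-numbered arrays correlated in all 6 pairs of groups (r from 0.298 to 0.412), so the numbers pair the arrays. Probe positions are those of the array annotation on mm9; exon and UTR annotation of that build was not used here. Gene starts come from RefSeq on GRCm38.p6. Precision is limited by the number of arrays. Part of the list of genes most like Pycard is not reported here.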

Additional observations from a re-analysis of the deposited data

Results flagged for a closer look

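The inductions of the lines differed past the adjusted p, by the test of the difference itself (limma, log2, induction in the line labelled Tet2 knockdown minus induction in control cells, n = 2 arrays per group), for 3 members and 8 genes of the lists. Of all 16153 genes tested, 2627 passed the same adjusted p, so such a difference was common on the array and not particular to these genes. The members were Il1r2 at -1.001 (adjusted p = 0.019), Il1rap at -0.617 (0.039) and Il18 at 0.895 (0.0089).

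Among the genes of IL-1 receptor signalling, Irak2 gave 1.003 (adjusted p = 0.0087, limma) and Peli1, which encodes a ubiquitin ligase, 0.907 (0.015). Among those of inflammasome sensing and pyroptosis, Casp4 gave 1.203 (0.0029), P2rx7, an ATP receptor gene, 0.880 (0.0066), Nlrp10 0.525 (0.016) and P2rx4 0.389 (0.048). Il18bp gave 0.619 (0.022) and Il6 0.914 (0.0081). Of the 11, only Il1r2, Irak2 and Casp4 reached 2-fold.

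The value of Il6 moved to 0.06 in the normexp values (adjusted p = 0.74) and in the authors' deposited values (0.77). Of 17 alternatives, the adjusted p was under 0.05 in 5 for Il1rap, in 6 for Il18bp (values from 0.14 to 0.71) and P2rx4, in 9 for Il1r2 and Nlrp10, in 12 for Peli1, in 13 for Il6, in 14 for Irak2, in 15 for Il18 and P2rx7, and in 16 for Casp4.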

How the results depend on the processing

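Over 18 alternatives, 659 of 697 values of the tested members kept their direction and their side of the threshold, 17 lost a call, 6 gained one and 15 changed sign. In the normexp and the authors' deposited values, 0 members were called between the lines at 0 h, at 24 h or for the difference between the inductions, and genes called numbered 92, 164 and 290, or 96, 163 and 288. Median scaling left 0 members at 24 h and for the difference between the inductions (216 genes). It moved the median of all genes to -0.11 in both inductions, and the share of calls that were higher to 39.1% from 52.1% in the line labelled knockdown and to 48.6% from 61.7% for the difference. Without a filter on dim probes, 187 genes were called at 24 h and 128 genes and 0 members for the difference. With probes well above background on all arrays, fewer were tested: 3 and 4 members in the inductions, and 155, 146 and 372 genes. No fold minimum gave 10000 and 11022 genes in the inductions, then 2, 2 and 3 members and 2193, 2230 and 2627 genes. Only the arrays compared (chosen after seeing the data) gave 166 genes at 0 h. The replicate block changed no member's call (6, 7, 1, 1 and 1) and gave 4474, 5271, 288, 358 and 676 genes. Leaving out 1 array gave 6 and 7 members in the inductions, 0 to 1 at 0 h, 1 at 24 h and 0 to 1 for the difference; genes numbered 4293 to 4420, 5005 to 5268, 241 to 300, 234 to 337 and 411 to 644.

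The values that changed sign were uncalled, and the cause was not tested. Not all were near 0 in the main fit, where Il1rn was at 0.345 for the difference between the inductions. At 0 h, Il1b was at -0.377 and Nlrp3 at -0.324 in that fit. For the difference between the inductions, Il1rn gave -0.299 and -0.301 (normexp, authors' values), -0.239 (dim values at the floor) and -0.155 to 0.845 with 1 array left out. Casp1 gave 0.136 and 0.134 and then -0.077 to 0.046, and Nlrp3 -0.200 to 0.039 with 1 array left out. At 0 h, Nlrp3 gave 0.123 (mean of its probes), and leaving out 1 array gave -0.026 to 0.274 for Il1r2 and -0.804 to 0.050 for Il1b. Tet2 gave -0.065 and -0.027 (median scaling, 24 h and difference), and -0.053 to 0.070 at 24 h and -0.219 to 0.004 at 0 h with 1 array left out.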

Other observations

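For each member called in at least 1 comparison, genes whose values over the 8 arrays were most like it, up to 3 for each, were listed by Pearson r, which describes the shared step between 0 h and 24 h more than anything else and carries no test. Il1b was most like Mmp8, a neutrophil collagenase gene (r = 0.9998), C3ar1, the receptor gene for complement C3a (0.9998), and Gm7676 (0.9997). Il1rn was most like Dpep2 (0.9994), St8sia4 and Derl1, and Il1r2 most like Ctsd, a lysosomal protease gene (0.9993), Jaml and Lcp1. Nlrp3 stood with Plekhm3 (0.9998), Irgq and Csf2rb2, and Pycard with Ifngr2, a receptor chain gene for interferon gamma (0.9998). Casp1, the member called between the lines at both times, was most like Leng1 (0.9941), Psma7 and Gabarapl1, and Il18 most like Bmf (0.9977), Rhd and P2rx7. P2rx7 is the only one of these that a pathway list holds.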
